A study of Arabidopsis thaliana with 12 samples.

Results

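The 129 genes described here were repressed by abscisic acid (ABA) in germinating seeds of the amiR-HsMYO control line of Arabidopsis thaliana, and had a smaller response, as measured here on a log2 scale with a pseudocount, in both lines with an artificial microRNA against SPLAYED (SYD). Expression was taken as CPM, the count of a gene for every 1000000 counts of its library. The ABA response R of a line was log2(mean CPM on ABA + 0.5) minus log2(mean CPM on ethanol + 0.5), each mean being over the 2 libraries of a group. A gene was a member if its mean on ethanol in amiR-HsMYO was at least 2 CPM, if R in amiR-HsMYO was at or below -1, and if R in amiR-SYD-1 and in amiR-SYD-2 each lay at least 0.8 above R in amiR-HsMYO. Of 36795 entries of the count table, 16376 met the CPM condition and 1211 of these met the condition on R in amiR-HsMYO. The 129 members were 10.65% of those 1211 repressed genes. The members were thus chosen by their measured ABA responses in all 3 lines and their ethanol level in amiR-HsMYO, which are given below as a description, without a test.

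The 12 RNA-seq libraries came from seeds that were kept for 3 days at 4 °C in the dark and then germinated for 24 h under a cycle of 16 h light and 8 h dark. Seeds of amiR-SYD-1, amiR-SYD-2 and amiR-HsMYO, the line the labels call the wild-type control, were sown on medium with 2 µM (±)-ABA or with 0.002% ethanol, the solvent control, with 2 libraries in each of the 6 groups. All 3 lines carry an artificial microRNA, a short RNA designed to silence a chosen transcript. The promoter that drives these microRNAs, and whether a line is 1 transformant, were not stated in the labels. The labels name the replicates biological but do not say whether they came from separate seed batches, so the spread between them may in part be technical. The series asks whether SYD is needed for the arrest of growth that ABA imposes after germination.

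SPLAYED is an ATPase of the SWI/SNF family, enzymes that move or evict nucleosomes. ABA is the hormone that holds seeds dormant and arrests young seedlings under water deficit, while gibberellin promotes germination and the elongation of the embryo axis. Growth of that axis rests on loosening of the cell wall, on water and sugar uptake by the vacuole, and on use of the stored reserves; ABA is known to lower transcripts of many genes in these processes.

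Library totals ran from 18713555 to 30012796 counts. SYD itself (AT2G28290) had 143 and 153 CPM in amiR-SYD-1 and 123.2 and 145 CPM in amiR-SYD-2 on ABA, against 194 and 244 CPM in amiR-HsMYO, so its transcript was reduced and still present. On ethanol it had 99.6 and 109 CPM in amiR-SYD-1 and 94.5 and 108 CPM in amiR-SYD-2, against 185 and 184 CPM in amiR-HsMYO. Of 9 listed seed storage markers, 7 were matched and each of these was detected in libraries labelled seed. No gene of the cell type marker lists was a member.

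ABA still lowered most of the 129 genes in the SYD lines, and R was above 0 for 3 genes in amiR-SYD-1 and 5 in amiR-SYD-2. The median R was -1.10 in amiR-SYD-1 and -0.92 in amiR-SYD-2, against -2.29 in amiR-HsMYO. R remained at or below -1 for 70 members in amiR-SYD-1 and 60 in amiR-SYD-2. As a plain ratio of mean CPM, with no pseudocount, the fall on ABA was smaller than in amiR-HsMYO in both SYD lines for 113 members. It was at least as large in 1 SYD line or both for 7 (AT1G01390, AT1G31710, AT4G22490, AT4G37530, AT5G46940, AT5G46950 and UMAMIT28), and 10 had 0 counts on ABA in a SYD line, so that no ratio could be formed there. The smaller of the 2 differences from amiR-HsMYO had a median of 1.01 and ran from 0.80 to 3.94 on the log2 scale. In edgeR's quasi-likelihood test at an adjusted p under 0.05, 116 members were called lower on ABA in amiR-SYD-1, 101 in amiR-SYD-2 and 129 in amiR-HsMYO. The same call was made for 25.2% of all 19612 tested genes in amiR-SYD-1, 23.6% in amiR-SYD-2 and 27.1% in amiR-HsMYO. A higher level on ABA was called for 0 members in amiR-SYD-1 (21.7% of tested genes), 0 in amiR-SYD-2 (19.4%) and 0 in amiR-HsMYO (26.9%). Nothing is read from these counts, because the rule used the same contrasts. A lower level in all 3 lines was called for 99 members, while 11 were called in amiR-HsMYO and in neither SYD line. Those 11 included GASA4, scpl20, CYP79B2, EXPA11 and TGG2. The share of all tested genes with these joint calls was not computed. Because the rule used the same contrasts, nothing is read from the joint counts either.

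**Figure D1:**
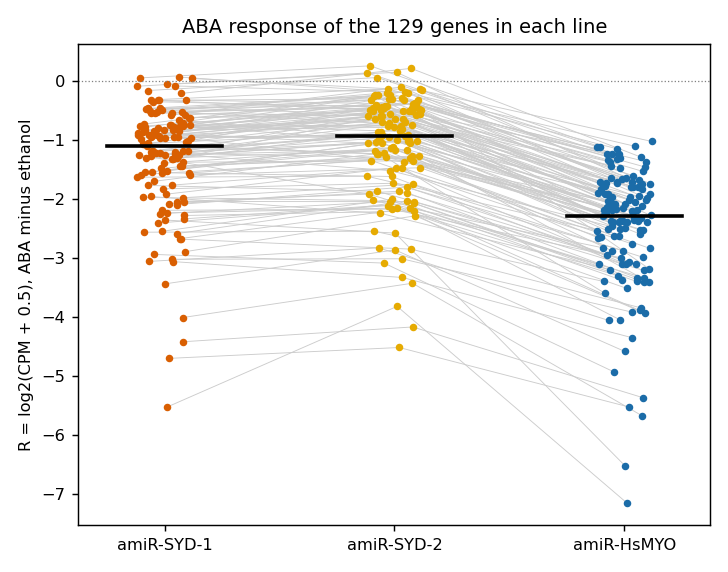
ABA response R of each of the 129 genes (points, joined by a grey line for each gene) in amiR-SYD-1, amiR-SYD-2 and amiR-HsMYO, as log2(CPM + 0.5) on ABA minus that on ethanol; the black bar is the median. The medians are -1.10, -0.92 and -2.29, and nearly all points of the SYD lines remain below 0.

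A smaller response can come from a higher level on ABA, from a lower level on ethanol, or from both, and the members split on this. For 86 members all 4 libraries of the SYD lines lay above both amiR-HsMYO libraries on ABA, an ordering that 18.1% of all tested genes had. The other 43 were not higher on ABA in this sense: in 30 the groups overlapped on ABA, and in 13 all 4 SYD libraries lay below both amiR-HsMYO libraries (28.8% of tested genes had that order). All 43 had lower levels on ethanol in all 4 SYD libraries, an order seen in 27.5% of tested genes. In each of these 43 the difference on ethanol was larger than any rise on ABA, and a relief of repression does not describe them as a group. Even so, 4 of them, MIPS3, NAC046, PEL3 and AT1G75260, were called higher on ABA by edgeR: AT1G75260 differed by 0.62 on ABA and -0.68 on ethanol, and NAC046 by 0.52 and -0.62, on the log2(CPM + 0.5) scale. Among the 86, the SYD libraries were also higher on ethanol for 25 (21.3% of tested genes), overlapped amiR-HsMYO for 37 and were lower for 24. On the same log2 scale, the rise on ABA exceeded the size of the ethanol difference in 78 members, all among the 86. In the rest of the 86 the ethanol difference was the larger, as in SAHH2 (0.29 on ABA and -0.89 on ethanol) and UMAMIT10 (0.39 and -1.2). CPK29 (0.53 and -0.76) and SUS5 (0.30 and -0.66) were of this kind too. A larger difference on ethanol was thus not confined to the 43.

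The levels of these groups of genes differed accordingly. Among the 86 members, the median of the group means on ABA was 6.16 CPM in amiR-SYD-1 and 6.8 CPM in amiR-SYD-2, against 2.13 CPM in amiR-HsMYO. On ethanol it was 13.1 CPM in amiR-SYD-1 and 12.9 CPM in amiR-SYD-2, against 12.5 CPM in amiR-HsMYO. The medians on ethanol were alike, although they pool 25 genes higher, 37 overlapping and 24 lower in the SYD libraries. That the SYD lines stood apart on ABA was set by how the 86 were picked. Among the 43 others the median on ABA was 0.264 CPM in amiR-SYD-1 and 0.286 CPM in amiR-SYD-2, against 0.502 CPM in amiR-HsMYO, and on ethanol 2.15 CPM in amiR-SYD-1 and 2.32 CPM in amiR-SYD-2, against 7.48 CPM in amiR-HsMYO. In whole seeds, fewer cells of a type and less RNA per cell cannot be told apart.

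**Figure D2:**
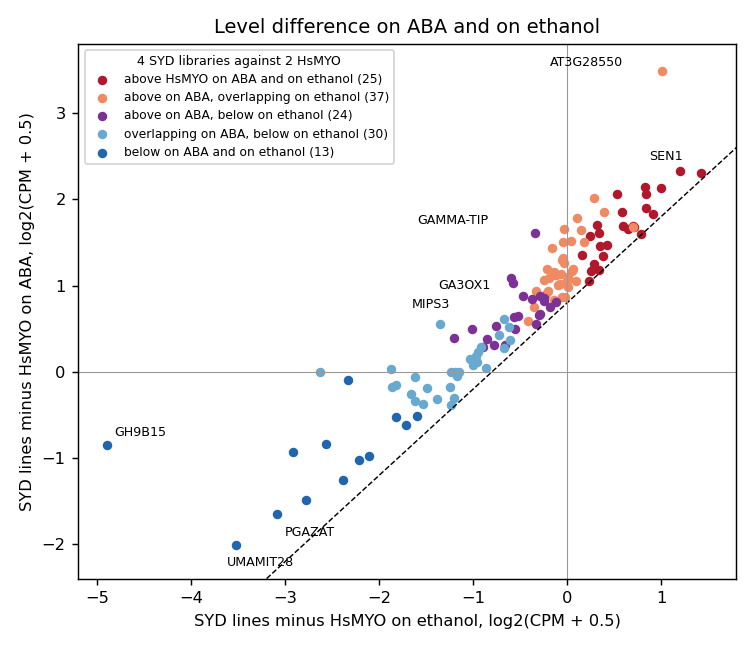
Difference in log2(CPM + 0.5) between the SYD lines (mean of both lines) and amiR-HsMYO for the 129 genes, on ethanol (x axis) and on ABA (y axis); the dashed line marks a difference in response of 0.8 and the colours show whether the 4 SYD libraries overlap the 2 amiR-HsMYO libraries. The 86 red, orange and purple genes lie above 0 on the y axis, and the 43 blue genes lie left of 0 on the x axis.

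By the quasi-likelihood test, the mean of the SYD lines was called higher than amiR-HsMYO on ABA for 86 members (16.8% of tested genes) and lower for 12 (15.9%). Those called higher were 82 of the 86 genes without overlap on ABA and 4 of the 43 others. On ethanol it was called higher for 24 (17.7%) and lower for 61 (14.5%). The difference between the ABA responses of the SYD lines and of amiR-HsMYO was called for 100 members, all toward a weaker repression (2.69% of tested genes). These 100 comprised all 86 genes that were higher on ABA and 14 of the 43 others. Both SYD lines were set against the same amiR-HsMYO libraries, and the rule used each of these levels, so the counts describe the set and support nothing.

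Promoter windows are shown for 6 members of both kinds, because the rule used no sequence and because the members differ in the elements that ABA and seed factors are known to bind. Each is the 250 bases before the annotated gene start in RefSeq TAIR10.1, 5′ to 3′ on the strand of the gene. Capitals mark, on either strand, the ABRE core ACGTG (bound by the bZIP factors of ABA signalling), the RY element CATGCA (bound by B3 factors of seed maturation), the GAGA repeat GAGAGA, the TATA box TATAAA and the evening element AAAATATCT; adjoining capitals can hold overlapping motifs. The windows are GA3OX1 at chr1:5346343-5346592 (minus strand), GASA4 at chr5:4944566-4944815 (plus strand), GAMMA-TIP at chr2:15445044-15445293 (plus strand), CER1 at chr1:418166-418415 (plus strand), GH9B15 at chr4:12295860-12296109 (minus strand) and PGAZAT at chr2:17464243-17464492 (minus strand).
GA3OX1: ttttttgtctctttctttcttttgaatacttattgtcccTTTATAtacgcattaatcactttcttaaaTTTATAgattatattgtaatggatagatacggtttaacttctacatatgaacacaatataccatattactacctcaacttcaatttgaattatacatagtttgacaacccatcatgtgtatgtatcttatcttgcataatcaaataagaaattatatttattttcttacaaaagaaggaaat
GASA4: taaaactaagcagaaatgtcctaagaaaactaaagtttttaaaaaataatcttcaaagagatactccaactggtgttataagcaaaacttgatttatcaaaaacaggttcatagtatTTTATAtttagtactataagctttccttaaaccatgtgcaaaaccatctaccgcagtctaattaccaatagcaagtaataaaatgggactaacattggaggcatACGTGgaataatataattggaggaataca
GAMMA-TIP: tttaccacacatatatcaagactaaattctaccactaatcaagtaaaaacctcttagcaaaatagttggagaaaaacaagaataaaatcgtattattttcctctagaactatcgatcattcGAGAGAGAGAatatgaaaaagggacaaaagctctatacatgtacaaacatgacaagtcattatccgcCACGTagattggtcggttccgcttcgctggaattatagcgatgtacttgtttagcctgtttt
CER1: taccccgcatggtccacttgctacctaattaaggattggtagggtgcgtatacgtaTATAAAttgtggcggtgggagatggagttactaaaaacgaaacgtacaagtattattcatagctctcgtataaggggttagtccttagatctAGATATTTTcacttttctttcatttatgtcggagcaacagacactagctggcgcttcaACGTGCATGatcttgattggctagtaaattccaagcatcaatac
GH9B15: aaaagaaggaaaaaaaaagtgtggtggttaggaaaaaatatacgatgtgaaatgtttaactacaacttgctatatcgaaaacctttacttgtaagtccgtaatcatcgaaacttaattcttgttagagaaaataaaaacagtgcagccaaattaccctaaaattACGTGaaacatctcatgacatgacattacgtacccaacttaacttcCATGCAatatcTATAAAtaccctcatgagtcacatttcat
PGAZAT: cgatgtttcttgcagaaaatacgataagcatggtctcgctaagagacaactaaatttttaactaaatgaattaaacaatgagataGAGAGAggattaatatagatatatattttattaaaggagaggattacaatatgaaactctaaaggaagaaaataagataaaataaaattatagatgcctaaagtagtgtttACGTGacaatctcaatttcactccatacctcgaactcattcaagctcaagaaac

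The ABRE core stood in 5 of the 6 windows printed and was missing from that of GA3OX1. It was also missing from the window of GA3OX2, which is not printed. The windows were picked after the values of the genes were seen, so nothing is read from that count. Over the set the ABRE core was found in 34 of the 128 members with a window (26.6%). The share was 27.5% of the repressed genes that were not members, 24% of tested genes and 22.9% of all 27443 promoters. The RY element was present in 21 members (16.4%), against 11% of repressed non-members and 8.43% of all promoters. It was in 10 of the 42 windows of members not higher on ABA (23.8%) and in 11 of the 86 others (12.8%). The TCP motif GGNCCC was in 5 members (3.91%), against 9.37% of repressed non-members and 7.35% of all promoters. The gibberellin response element TAACAAA (15.6% of members, 16.1% of all promoters), the G-box CACGTG, which contains an ABRE core (7.03% and 6.49%), the GAGA repeat (18% and 20.6%) and the TATA box (48.4% and 47.3%) were about as frequent among members as among all promoters. The L1 box of epidermal genes, TAAATGCA or TAAATGTA, was in 5 members (3.91%), against 4.49% of all promoters. The telo box AAACCCTA was in 1 member (0.781%), against 4.49% of all promoters, and the evening element was in 5 (3.91%, against 2.36%). These are counts of letters in the window on both strands and were not tested. Median GC content was 30% in members and in repressed non-members, against 31.2% in all promoters.

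Gibberellin genes gave 3 members of the 28 tested genes of that list, 4 of which were repressed in amiR-HsMYO by the rule. Among all genes, members were 129 of 19612 tested genes and 10.65% of the 1211 repressed genes. Counts of members in gene lists were not tested. GA3OX1 and GA3OX2 encode the gibberellin 3-oxidases that make bioactive gibberellin, and GASA4 encodes a small secreted cysteine-rich protein of a gibberellin-regulated family. On ABA, GA3OX1 (AT1G15550, TAIR10.1 chromosome 1, 5344388 to 5346342) had 8.61 and 8.54 CPM in amiR-SYD-1 and 8.00 and 9.995 CPM in amiR-SYD-2, against 4.60 and 4.47 CPM in amiR-HsMYO. On ethanol it had 14.6 and 16.6 CPM in amiR-SYD-1 and 14.1 and 17.5 CPM in amiR-SYD-2, against 23.5 and 20.3 CPM in amiR-HsMYO. Its SYD libraries thus lay above amiR-HsMYO on ABA and below it on ethanol, and ABA lowered it 1.82-fold in amiR-SYD-1 and 1.76-fold in amiR-SYD-2, against 4.83-fold in amiR-HsMYO. GA3OX2 (AT1G80340, chromosome 1, 30200466 to 30202349) had 95.6 and 93.1 CPM in amiR-SYD-1 and 94.7 and 94.1 CPM in amiR-SYD-2 on ABA, against 55.2 and 52.4 CPM in amiR-HsMYO. On ethanol the values were 117 and 119 CPM in amiR-SYD-1 and 117 and 115 CPM in amiR-SYD-2, against 130 and 125 CPM in amiR-HsMYO. The replicates of GA3OX2 were close to each other in every group, and its repression was 1.25-fold in amiR-SYD-1 and 1.23-fold in amiR-SYD-2, against 2.36-fold in amiR-HsMYO.

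GASA4 (AT5G15230, chromosome 5, 4944816 to 4946299) differed from both oxidases in being higher in the SYD lines under both treatments. On ABA it had 621 and 711 CPM in amiR-SYD-1 and 580.4 and 689 CPM in amiR-SYD-2, against 195 and 211 CPM in amiR-HsMYO. On ethanol it had 635 and 772 CPM in amiR-SYD-1 and 715 and 731 CPM in amiR-SYD-2, against 406 and 466 CPM in amiR-HsMYO. Neither treatment showed an overlap between SYD and amiR-HsMYO libraries, and R was -0.08 in amiR-SYD-1 and -0.19 in amiR-SYD-2, against -1.10 in amiR-HsMYO. Over the 28 tested gibberellin genes, ABA was called to lower 6 in amiR-HsMYO (27.1% of all tested genes) and to raise 15 (26.9%). The response of the SYD lines was called above that of amiR-HsMYO for 4 (2.69% of all tested genes), the 3 members and GA3OX4. It was called below that of amiR-HsMYO for GASA1 (2.45%). Nothing is read from the 3 members among the 4, because the rule used this contrast. Over the 28 genes the median difference in response was -0.109 on the log2 scale, against -0.0178 over all tested genes. GA3OX4, a paralog that adjoins GA3OX2, was not repressed in amiR-HsMYO and so was no member; on ABA it averaged 2.87 CPM in amiR-SYD-1 and 4.01 CPM in amiR-SYD-2, against 1.23 CPM in amiR-HsMYO. The labels do not say how reads shared by such paralogs were counted.

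**Figure D3:**
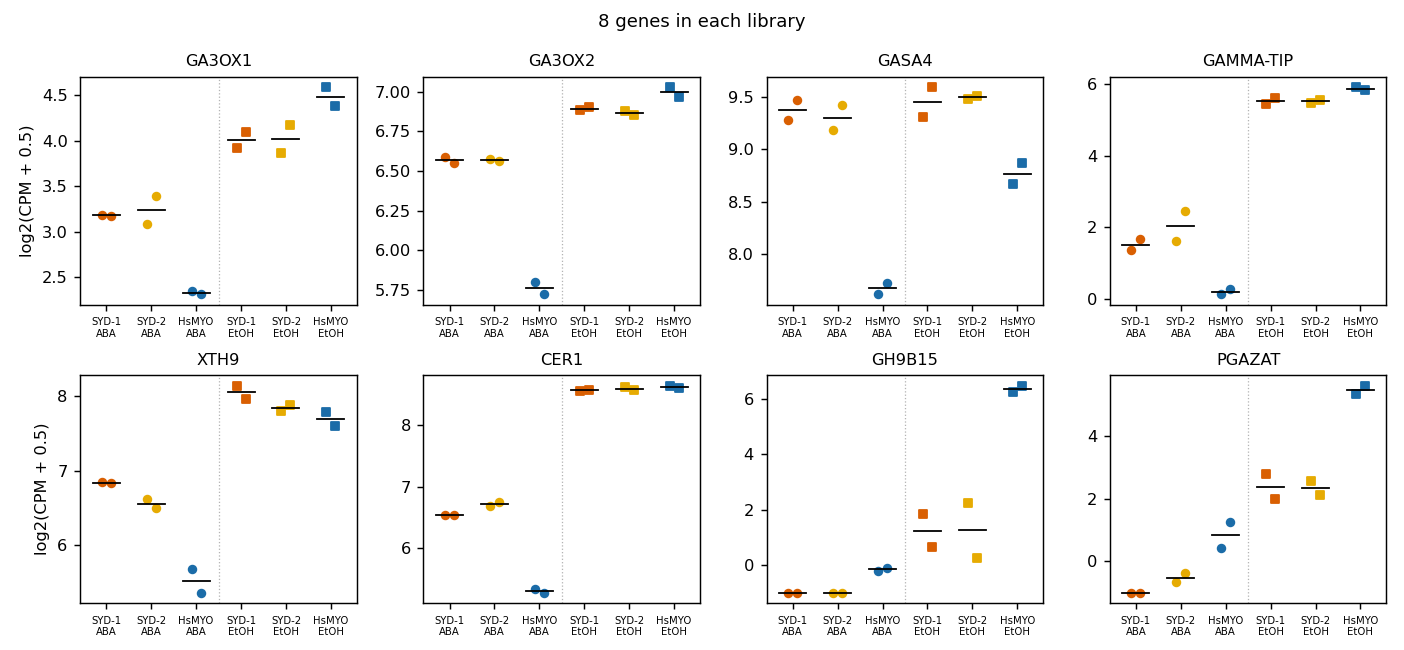
Expression of 8 of the 129 genes in each library as log2(CPM + 0.5), with circles on ABA and squares on ethanol (EtOH), 2 libraries for each group and a bar at their mean. GA3OX1, GA3OX2, GASA4, GAMMA-TIP, XTH9 and CER1 lie above amiR-HsMYO on ABA in the SYD lines, whereas GH9B15 and PGAZAT lie below it under both treatments.

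Genes of the growing cell wall and of water uptake were represented by GAMMA-TIP, XTH9, XTH10, EXPA11 and EXPA6. Of 35 tested aquaporin genes, 9 were repressed in amiR-HsMYO and 1 was a member, near the 10.65% of all repressed genes. That member was GAMMA-TIP (AT2G36830, chromosome 2, 15445294 to 15446621), the aquaporin of the vacuolar membrane in elongating cells. On ABA it had 2.08 and 2.71 CPM in amiR-SYD-1 and 2.60 and 4.98 CPM in amiR-SYD-2, against 0.60 and 0.706 CPM in amiR-HsMYO. On ethanol it had 43.0 and 48.9 CPM in amiR-SYD-1 and 44.2 and 46.6 CPM in amiR-SYD-2, against 59.6 and 56.8 CPM in amiR-HsMYO. ABA still lowered it 19.2-fold in amiR-SYD-1 and 12-fold in amiR-SYD-2, against 89.2-fold in amiR-HsMYO, so a large part of its repression remained. XTH9, a xyloglucan endotransglucosylase/hydrolase that cuts and rejoins wall polymers, had 114 and 113 CPM in amiR-SYD-1 and 97.7 and 89.6 CPM in amiR-SYD-2 on ABA, against 50.7 and 40.7 CPM in amiR-HsMYO. On ethanol it had 281 and 249 CPM in amiR-SYD-1 and 223 and 236 CPM in amiR-SYD-2, against 220 and 193 CPM in amiR-HsMYO. The SYD libraries were higher under both treatments, and more so on ABA (2.27-fold) than on ethanol (1.20-fold).

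The 2 expansin members, of 22 tested expansin genes (4 repressed in amiR-HsMYO), took opposite courses. Expansins loosen the wall without cutting its polymers. EXPA11 had 13.7 and 10.9 CPM in amiR-SYD-1 and 10.9 and 10.2 CPM in amiR-SYD-2 on ABA, against 2.47 and 1.96 CPM in amiR-HsMYO, with R at -0.09 in amiR-SYD-1, 0.14 in amiR-SYD-2 and -1.11 in amiR-HsMYO. On ethanol EXPA11 had 11.9 and 14.2 CPM in amiR-SYD-1 and 10.1 and 8.98 CPM in amiR-SYD-2, against 5.03 and 5.69 CPM in amiR-HsMYO. EXPA11 was thus higher in every SYD library under both treatments. EXPA6 had 3.24 and 2.48 CPM in amiR-SYD-1 and 2.51 and 1.72 CPM in amiR-SYD-2 on ABA, against 2.5 and 2.24 CPM in amiR-HsMYO. On ethanol EXPA6 had 10.1 and 9.70 CPM in amiR-SYD-1 and 7.24 and 7.72 CPM in amiR-SYD-2, against 16.1 and 16.0 CPM in amiR-HsMYO. EXPA6 overlapped on ABA and was lower on ethanol in the SYD lines. XTH10 had 2.03 to 4.03 CPM in the SYD libraries on ABA, against 1.60 and 0.942 CPM in amiR-HsMYO. On ethanol XTH10 was lower in the SYD libraries, at 5.21 to 6.23 CPM against 6.27 and 7.27 CPM in amiR-HsMYO. In all, 2 of 27 tested XTH genes were members, and 9 of the 27 were repressed in amiR-HsMYO.

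AT3G28550, a proline-rich extensin-like protein, had 12.9 and 12.9 CPM in amiR-SYD-1 and 19.1 and 26.0 CPM in amiR-SYD-2 on ABA, against 1.30 and 0.824 CPM in amiR-HsMYO. This was 16.7-fold higher in the SYD lines. Without ABA it had 676 and 550 CPM in amiR-SYD-1 and 488 and 159 CPM in amiR-SYD-2, against 241 and 201 CPM in amiR-HsMYO, and the replicates of amiR-SYD-2 lay far apart. The summed level of 6 root hair markers (EXPA7, RSL4, EXPA18, EXT10, SHV2 and RHD2) moved with it on ethanol, at 94.2 and 65.9 CPM in amiR-SYD-1 and 54.5 and 34.3 CPM in amiR-SYD-2, against 18.1 and 19.5 CPM in amiR-HsMYO. On ABA that sum was between 0.76 and 1.31 CPM in the SYD libraries, against 0.167 and 0.275 CPM in amiR-HsMYO. The part of root hair cells in the level of AT3G28550 was not tested. None of the 28 tested genes of the root hair list was a member, and none of 94 photosynthesis, 136 cell cycle, 55 ribosomal or 23 tubulin genes was. Only 8 root hair, 38 photosynthesis, 3 cell cycle, 1 ribosomal and 4 tubulin genes were repressed in amiR-HsMYO and so could be members. With members at 10.65% of all repressed genes, nothing is read from these absences.

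Sugar and nitrogen handling contributed a second group. Of 3 tested genes with the annotated product glycosyl hydrolases family 32, which includes invertases that split sucrose, all 3 were repressed in amiR-HsMYO and 2 were members. Genes annotated with another product name were not counted. ATBETAFRUCT4, a vacuolar invertase, had 24.8 and 21.7 CPM in amiR-SYD-1 and 26.2 and 30.5 CPM in amiR-SYD-2 on ABA, against 13.4 and 9.57 CPM in amiR-HsMYO, and AT1G62660 had 7.80 and 8.63 CPM in amiR-SYD-1 and 9.13 and 9.45 CPM in amiR-SYD-2, against 3.47 and 2.00 CPM in amiR-HsMYO. Both were higher in every SYD library on ABA and overlapped amiR-HsMYO on ethanol. SUS6, a sucrose synthase of the phloem, had 13.4 and 15.3 CPM in amiR-SYD-1 and 20.9 and 22.7 CPM in amiR-SYD-2 on ABA, against 7.46 and 8.28 CPM in amiR-HsMYO. Its relative SUS5 was closer to the control on ABA, with 6.06 to 6.89 CPM in the SYD libraries, against 4.37 and 6.04 CPM in amiR-HsMYO. On ethanol SUS5 was lower in every SYD library, at 6.16 to 9.57 CPM against 12.45 and 15.07 CPM in amiR-HsMYO.

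Of 34 tested genes of the MtN21/EamA-like transporter family, 6 were repressed in amiR-HsMYO and 4 were members: UMAMIT10, UMAMIT20, UMAMIT28 and UMAMIT33. Several UMAMIT proteins export amino acids. UMAMIT20 was lower in every SYD library on ethanol, at 146.8 to 167.5 CPM against 188.8 and 195.9 CPM in amiR-HsMYO. On ABA UMAMIT20 was higher, with 108 and 109.6 CPM in amiR-SYD-1 and 111 and 110.6 CPM in amiR-SYD-2, against 70.3 and 68.7 CPM in amiR-HsMYO. UMAMIT28 went the other way, with 0.152 and 0.275 CPM in amiR-SYD-1 and 0.0865 and 0.136 CPM in amiR-SYD-2 on ABA, against 1.83 and 2.47 CPM in amiR-HsMYO. Without ABA it had 1.39 and 1.01 CPM in amiR-SYD-1 and 2.23 and 1.38 CPM in amiR-SYD-2, against 22.6 and 21.9 CPM in amiR-HsMYO, so it was lower in the SYD lines under both treatments. UMAMIT33 was higher in every SYD library on ABA (1.56 to 2.53 CPM, against 0.733 and 0.745 CPM in amiR-HsMYO) and lower in each on ethanol (3.74 to 5.18 CPM, against 5.87 and 8.04 CPM). SWEET11, a sucrose exporter, was nearly silent on ABA in all 3 lines, at 0.152 CPM or less, and on ethanol had 4.43 and 2.81 CPM in amiR-SYD-1 and 2.89 and 3.62 CPM in amiR-SYD-2, against 4.77 and 9.59 CPM in amiR-HsMYO.

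Cuticle formation gave 3 members of 63 tested genes, 27 of which were repressed in amiR-HsMYO, a share near the 10.65% of all repressed genes. A response called above that of amiR-HsMYO was found for 16 genes of that list (2.69% of all tested genes), and a response below it for 2 (2.45%). CER1 (AT1G02205, chromosome 1, 418416 to 422579) encodes the enzyme that forms wax alkanes. On ABA CER1 had 92.5 and 91.9 CPM in amiR-SYD-1 and 103 and 107 CPM in amiR-SYD-2, against 39.9 and 38.1 CPM in amiR-HsMYO. Without ABA it had 377 and 384 CPM in amiR-SYD-1 and 394 and 381 CPM in amiR-SYD-2, against 401 and 389.7 CPM in amiR-HsMYO. The lines did not separate on ethanol, and ABA lowered CER1 4.13-fold in amiR-SYD-1 and 3.71-fold in amiR-SYD-2, against 10.2-fold in amiR-HsMYO. CER2, needed to elongate very long fatty acids for wax, was higher under both treatments: 12.3 and 10.6 CPM in amiR-SYD-1 and 11.5 and 10.6 CPM in amiR-SYD-2 on ABA, against 2.67 and 1.96 CPM in amiR-HsMYO. PEL3, an acyltransferase of cutin formation, was instead lower on ethanol, with 49.3 and 45.6 CPM in amiR-SYD-1 and 45.5 and 46.2 CPM in amiR-SYD-2, against 77.6 and 72.2 CPM in amiR-HsMYO. The sum of the epidermis markers PDF1, ATML1 and FDH moved the same way on ethanol, at 791 to 1074 CPM in the SYD libraries against 1618 and 1337 CPM in amiR-HsMYO, and overlapped on ABA, at 587 to 628 CPM against 646 and 585 CPM. The part of epidermal cell number in the cuticle genes was not tested.

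Several members, grouped here by their annotated product after their values were seen, encode proteases or small proteins. CP1, a cysteine proteinase, had 2059 and 2082 CPM in amiR-SYD-1 and 2477 and 2514 CPM in amiR-SYD-2 on ABA, against 1747 and 1468 CPM in amiR-HsMYO. On ethanol it was lower in the SYD lines, with 3677 and 3697 CPM in amiR-SYD-1 and 4227 and 3510 CPM in amiR-SYD-2, against 5639 and 5478 CPM in amiR-HsMYO. The serine carboxypeptidase gene scpl20 changed little with ABA in the SYD lines: it had 932 and 944 CPM in amiR-SYD-1 and 1039 and 1023 CPM in amiR-SYD-2 on ABA, against 417 and 407 CPM in amiR-HsMYO, and 905 to 1312 CPM in the SYD libraries on ethanol, against 845 and 827 CPM in amiR-HsMYO. CEP2, a papain-type endopeptidase of dying tissues, had 10.9 to 12.7 CPM in the SYD libraries on ABA, against 2.30 and 1.49 CPM in amiR-HsMYO, and SEN1, a gene induced by darkness and senescence, had 85.3 to 95.7 CPM, against 18.7 and 16.8 CPM. Both genes were also higher in every SYD library on ethanol. AT1G29090, another cysteine proteinase, differed in that its 4 SYD libraries overlapped amiR-HsMYO on ABA (10.7 to 15.9 CPM, against 16.1 and 13.1 CPM) and were lower on ethanol (246 to 285 CPM, against 576 and 664 CPM).

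AT3G48140, a B12D protein, had 194 and 204 CPM in amiR-SYD-1 and 186 and 233 CPM in amiR-SYD-2 on ABA, against 86.1 and 110.1 CPM in amiR-HsMYO. AT4G15160, of the bifunctional inhibitor and lipid transfer family, had 369 and 349 CPM in amiR-SYD-1 and 344 and 298 CPM in amiR-SYD-2 on ABA, against 118 and 93.9 CPM in amiR-HsMYO. AT1G62480, annotated as a vacuolar calcium-binding protein, had 111 and 101 CPM in amiR-SYD-1 and 120.1 and 115 CPM in amiR-SYD-2 on ABA, against 52.2 and 46.2 CPM in amiR-HsMYO. In each of these 3 genes every SYD library was above both amiR-HsMYO libraries on ABA. On ethanol AT3G48140 was higher in every SYD library as well, while AT4G15160 and AT1G62480 overlapped amiR-HsMYO. AT5G16030 was 9.04-fold higher on ABA in the SYD lines, at 2.81 to 4.55 CPM against 0.433 and 0.314 CPM in amiR-HsMYO.

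Defence metabolism and hormone transport added a few members. CYP79B2, which turns tryptophan into the precursor of indole glucosinolates, had 60.1 and 59.9 CPM in amiR-SYD-1 and 92.0 and 91.6 CPM in amiR-SYD-2 on ABA, against 38.3 and 23.1 CPM in amiR-HsMYO. On ethanol the lines overlapped, at 64.1 to 82.4 CPM in the SYD libraries and 76.1 and 75.0 CPM in amiR-HsMYO. TGG2, a myrosinase that breaks glucosinolates down, had 5.92 to 8.56 CPM in the SYD libraries on ABA, against 2.43 and 1.73 CPM in amiR-HsMYO. On ethanol TGG2 was higher in every SYD library as well, at 5.65 to 7.48 CPM against 4.68 and 5.485 CPM in amiR-HsMYO. CYP79B2 and TGG2 were 2 of 58 tested glucosinolate genes, 9 of which were repressed in amiR-HsMYO. Of the 58, 11 had a response called above that of amiR-HsMYO (2.69% of all tested genes) and 2 below it (2.45%). LAX3, an auxin influx carrier, was the only member of 109 tested auxin genes, 15 of which were repressed in amiR-HsMYO. LAX3 had 2.02 to 2.77 CPM in the SYD libraries on ABA, against 1.30 and 0.863 CPM in amiR-HsMYO. P5CS1, the enzyme of proline synthesis best known as induced by ABA in seedlings, was 2.69-fold lower on ABA in amiR-HsMYO here. It had 9.56 to 12.7 CPM in the SYD libraries on ABA, against 7.33 and 7.53 CPM in amiR-HsMYO. On ethanol P5CS1 was lower in every SYD library, at 12.78 to 17.74 CPM against 20.18 and 19.79 CPM in amiR-HsMYO. GSL04, a callose synthase-like gene, had 5.27 to 6.60 CPM in the SYD libraries on ABA, against 2.37 and 2.79 CPM in amiR-HsMYO, with overlap on ethanol.

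Of 574 tested genes in the transcription factor list, which does not hold every family, 64 were repressed in amiR-HsMYO. The members among them were NAC041 and NAC046, and both belonged to the genes that were lower on ethanol. NAC041 had 2.62 and 3.07 CPM in amiR-SYD-1 and 3.03 and 2.10 CPM in amiR-SYD-2 on ethanol, against 7.86 and 10.8 CPM in amiR-HsMYO. NAC046, a promoter of leaf senescence, had 11.8 to 15.2 CPM in the SYD libraries on ethanol, against 17.4 and 26.0 CPM in amiR-HsMYO, and overlapped on ABA. By annotated product, 4 further members were bHLH proteins, of 77 tested (12 repressed in amiR-HsMYO), and AT2G38090 was homeodomain-like. The bHLH genes included HFR1, a light-signalling factor, which had 7.20 and 6.52 CPM in amiR-SYD-1 and 5.88 and 5.79 CPM in amiR-SYD-2 on ABA, against 2.43 and 1.92 CPM in amiR-HsMYO. On ethanol HFR1 was higher in every SYD library as well, at 9.80 to 10.4 CPM against 8.30 and 9.71 CPM in amiR-HsMYO.

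The 43 members that were not higher on ABA held the largest differences in R. GH9B15 (AT4G23560, chromosome 4, 12293117 to 12295859), of the endoglucanase family of cell wall hydrolases, had 3.05 and 1.06 CPM in amiR-SYD-1 and 4.26 and 0.688 CPM in amiR-SYD-2 on ethanol, against 75.0 and 88.3 CPM in amiR-HsMYO. On ABA it had 0 counts in all 4 SYD libraries, against 0.367 and 0.432 CPM in amiR-HsMYO, a sum of 22 counts. The fall on ABA was thus at least 28.3-fold in amiR-SYD-1 and at least 33.7-fold in amiR-SYD-2, taking 3 counts over the group as the floor, against 205-fold in amiR-HsMYO. The difference of 3.94 in R, the highest of all members, therefore rests on the 36.1-fold higher ethanol level of amiR-HsMYO and on the pseudocount of 0.5. In the reference annotation 251 bases of GH9B15 overlap AT4G23550 on the opposite strand, and the labels do not state the strand setting of the counting.

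PGAZAT (AT2G41850, chromosome 2, 17461655 to 17464242), a polygalacturonase that degrades pectin during cell separation, had 6.31 and 3.50 CPM in amiR-SYD-1 and 5.35 and 3.8 CPM in amiR-SYD-2 on ethanol, against 39.9 and 47.9 CPM in amiR-HsMYO. On ABA it had 0 counts in both libraries of amiR-SYD-1 and 0.130 and 0.271 CPM in amiR-SYD-2, against 0.833 and 1.88 CPM in amiR-HsMYO. With a pseudocount of 0.1 the smaller difference in R of PGAZAT was -0.73, against 1.15 with 0.5, so the direction of its response difference depends on that choice. The same held for KAT1 (-0.03, against 0.95), and the smaller difference was 0.14 for UMAMIT28 (1.19 with 0.5), 0.22 for AT4G37530 (1.19) and 0.10 for AT4G22490 (0.81). AT4G23500, a pectin lyase-like protein, was low in the SYD lines under both treatments and nearly level: it had 8.31 and 7.12 CPM in amiR-SYD-1 and 7.57 and 7.05 CPM in amiR-SYD-2 on ABA, against 14.7 and 12.9 CPM in amiR-HsMYO. Without ABA it had 7.43 and 7.21 CPM in amiR-SYD-1 and 8.95 and 8.01 CPM in amiR-SYD-2, against 44.8 and 53.3 CPM in amiR-HsMYO.

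MIPS3, a myo-inositol phosphate synthase, had 13.2 and 11.8 CPM in amiR-SYD-1 and 14.7 and 12.5 CPM in amiR-SYD-2 on ethanol, against 35.0 and 33.5 CPM in amiR-HsMYO, and 0.659 to 1.75 CPM in the SYD libraries on ABA, against 0.70 and 0.588 CPM. TYRDC, a tyrosine decarboxylase, and LAC7, a laccase, had 0 counts on ABA in all 4 SYD libraries, against 2 counts of TYRDC over both amiR-HsMYO libraries. LAC7 also had 0 counts in amiR-HsMYO on ABA, and on ethanol it had 0.109 to 0.284 CPM in the SYD libraries, against 3.05 and 4.997 CPM in amiR-HsMYO. TYRDC on ethanol had 0.568 to 1.18 CPM in the SYD libraries, against 6.36 and 5.57 CPM in amiR-HsMYO. The methyltransferase-like gene AT2G14060 (2.39 to 2.7 CPM in the SYD libraries on ethanol, against 9.63 and 11.3 CPM in amiR-HsMYO) and the LURP-one-like gene AT2G05910 (0.371 to 0.710 CPM, against 2.83 and 3.94 CPM) had the same form. THI2.2, a thionin of defence, had 0.398 to 0.908 CPM in the SYD libraries on ethanol, against 2.25 and 1.91 CPM in amiR-HsMYO, and 0 counts on ABA in every library. CSLB03 and CSLG3, cellulose synthase-like genes, were lower on ethanol as well, CSLB03 at 3.37 to 5.63 CPM in the SYD libraries against 9.54 and 11.6 CPM in amiR-HsMYO. Members with 3 counts or fewer over a group on ABA numbered 15 in amiR-SYD-1 and 12 in amiR-SYD-2, against 6 in amiR-HsMYO. With a pseudocount of 0.1, 10 of these 43 genes no longer met the rule, and 0 of the 86 others were lost.

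Some members adjoined each other in the genome. The 4 adjacent pairs encoded peroxidases (AT4G37520 and AT4G37530, chromosome 4, 17631500 to 17636401), ankyrin repeat proteins (AT5G04680 and AT5G04690), pectin methylesterase inhibitor-like proteins (AT5G46940 and AT5G46950, chromosome 5, 19058031 to 19060121) and LEA-like proteins (AT5G60520 and AT5G60530). Neighbouring paralogs can share reads, so these are not independent cases. The peroxidase AT4G37530 had 0.521 to 0.802 CPM in the SYD libraries on ethanol, against 7.24 and 7.43 CPM in amiR-HsMYO, and its neighbour AT4G37520 had 0.290 to 0.710 CPM, against 2.83 and 3.45 CPM. On ABA AT4G37530 had 0.0918 CPM or less in the SYD libraries, against 0.866 and 1.14 CPM in amiR-HsMYO, and as a plain ratio its fall was 16.2-fold in amiR-SYD-1 and 24.3-fold in amiR-SYD-2, against 7.32-fold in amiR-HsMYO. AT5G46950 had 0.471 to 1.17 CPM in the SYD libraries on ethanol, against 8.96 and 10.7 CPM in amiR-HsMYO, and on ABA 1 count over the 4 SYD libraries, against 0.60 and 0.353 CPM in amiR-HsMYO. Both members of each of these pairs were thus lower on ethanol in the SYD lines. The pair of LEA-like genes was of the other kind, with AT5G60520 at 8.13 to 10.03 CPM in the SYD libraries on ABA, against 2.97 and 2.43 CPM in amiR-HsMYO. Chromosome 1 held 34 members (26.4%, against 26.1% of tested genes), and the shares of the other chromosomes were within a few percentage points of those of the tested genes.

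Some members also differed in level between the SYD lines. The values of both lines had entered the rule, and 153 repressed genes passed the 0.8 difference in amiR-SYD-1, against 224 in amiR-SYD-2. Calls between amiR-SYD-1 and amiR-SYD-2 are therefore given only as a description of the members, with no p for a single gene. The calls came from edgeR's quasi-likelihood test with adjustment over all 19612 genes. On ABA, 8 members were called lower in amiR-SYD-1 than in amiR-SYD-2 (0.352% of all tested genes) and 0 were called higher (0.495%). In either direction the calls were 8 of 129 members (6.2%), 2.03% of the repressed non-members and 0.846% of all tested genes. Nothing is read from these counts, because the rule used the levels of both lines.

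Of the 8, RTM2, AT5G20970 and AT2G27140 encode HSP20-like proteins, the family of small heat shock chaperones. The set held 4 of the 28 tested genes with that product, 6 of which were repressed in amiR-HsMYO. RTM2, known for restricting the long-distance movement of a plant virus, had 10.7 and 13.1 CPM in amiR-SYD-1, against 19.5 and 22.3 CPM in amiR-SYD-2 on ABA, with 4.43 and 4.98 CPM in amiR-HsMYO. The log2 difference of RTM2 between the SYD lines was -0.82 ± 0.12, with 2 libraries a line. Here and below, the value after ± is a SE derived from the F statistic of the edgeR fit over all 12 libraries. AT5G20970 had 8.51 and 9.92 CPM in amiR-SYD-1, against 14.7 and 15.2 CPM in amiR-SYD-2, a log2 difference of -0.71 ± 0.11; the whole gene, 1202 bases, overlaps AT5G20980 on the opposite strand, so its counts are uncertain. AT2G27140 had 10.9 and 12.7 CPM in amiR-SYD-1, against 19.0 and 19.9 CPM in amiR-SYD-2 (log2 difference -0.74 ± 0.16). In these 3 genes amiR-SYD-1 thus lay between amiR-HsMYO and amiR-SYD-2 without overlap. The fourth HSP20-like member, AT3G10680, had 2.33 and 2.48 CPM in amiR-SYD-1, against 3.72 and 3.35 CPM in amiR-SYD-2, and was not called.

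The others were AT4G09950, SUS6, AT1G68230, AT1G13920 and AT1G75260. AT4G09950, a P-loop nucleoside triphosphatase, had 11.2 and 13.7 CPM in amiR-SYD-1, against 20.5 and 21.7 CPM in amiR-SYD-2 on ABA (log2 difference -0.77 ± 0.10). It was the only gene of the 8 still called under all 17 alternatives tried. SUS6, whose values stand above, differed by -0.61 ± 0.10. AT1G68230, a reticulon of the endoplasmic reticulum, had 8.31 and 11.9 CPM in amiR-SYD-1, against 16.9 and 19.5 CPM in amiR-SYD-2 (-0.85 ± 0.15). AT1G13920, a remorin of the plasma membrane, had 5.12 and 6.34 CPM, against 10.2 and 10.2 CPM (-0.85 ± 0.15). AT1G75260 had 2.03 and 1.51 CPM in amiR-SYD-1, against 3.11 and 3.62 CPM in amiR-SYD-2 (-0.95 ± 0.21). In the main fit 0.846% of all tested genes were called in either direction. The count of 8 fell to 1 without replicate 1 of amiR-SYD-1 on ABA (0.265%). It fell to 1 without replicate 2 of amiR-SYD-2 on ABA (0.18%), and to 5 without replicate 2 of amiR-SYD-1 on ABA (0.255%).

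**Figure D4:**
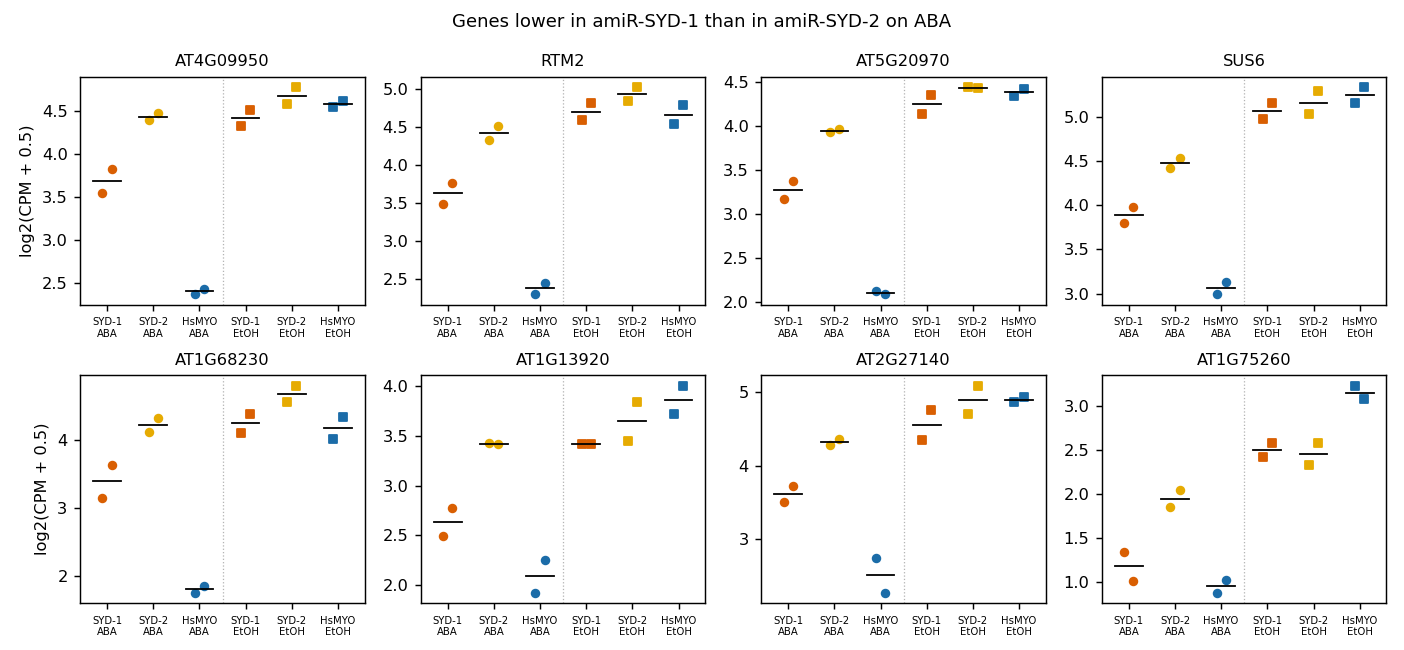
The 8 genes called lower in amiR-SYD-1 than in amiR-SYD-2 on ABA, as log2(CPM + 0.5) in each library, with circles on ABA and squares on ethanol (EtOH), 2 libraries for each group and a bar at their mean. On ABA both amiR-SYD-1 libraries lie below both amiR-SYD-2 libraries in every panel.

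On ethanol 2 members were called lower in amiR-SYD-1 than in amiR-SYD-2 (0.275% of tested genes) and 0 were called higher (0.413%). Nothing is read from these counts either. PUP19, a purine permease, had 10.5 and 10.2 CPM in amiR-SYD-1, against 14.9 and 17.6 CPM in amiR-SYD-2 (log2 difference -0.67 ± 0.12). KAT1, the inward potassium channel of guard cells, had 1.23 and 1.64 CPM in amiR-SYD-1, against 2.7 and 3.51 CPM in amiR-SYD-2 (-1.14 ± 0.23), and was higher in amiR-HsMYO, at 7.82 and 8.57 CPM. The sum of the stomatal lineage markers SPCH, MUTE and FMA on ethanol was 10.8 to 13 CPM in the SYD libraries, against 18.9 and 21.0 CPM in amiR-HsMYO; its part in the level of KAT1 was not tested. Both calls were lost without replicate 1 or replicate 2 of amiR-SYD-1 on ethanol, or without replicate 2 of amiR-SYD-2 on ethanol, and KAT1 was not called by DESeq2. For the ABA response itself, 0 members were called between amiR-SYD-1 and amiR-SYD-2 by edgeR (0% of tested genes) and 0 by DESeq2. The unadjusted p was under 0.05 for 17 members and for 4.29% of all tested genes; nothing is read from this, because the rule selected on these responses.

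Genes just outside the limits of the rule had values close to those of the members just inside. CSLG3 and XBCP3, with a smaller difference in R of 0.801 each, were just inside the rule, and AT1G45010 and AT5G49770, with 0.798 each, were just outside it. AT1G01390 and THI2.2 had 2.07 and 2.08 CPM on ethanol in amiR-HsMYO, just above the limit of 2 CPM. GASA4 (R of -1.10 in amiR-HsMYO) and scpl20 (-1.02) were just repressed enough, whereas CYP83B1 (-0.88), which acts after CYP79B2 in indole glucosinolate synthesis, was not. Of the 1211 repressed genes, 27 went the other way, with R at least 0.8 lower in both SYD lines than in amiR-HsMYO. Tested genes outside the set whose log2(CPM + 0.5) followed the mean of the members most closely over the 12 libraries were AT1G29310 (r = 0.988), AT1G12100 (0.988), AT2G03850 (0.988), AT3G48460 (0.987) and CMT3 (0.986), a DNA methyltransferase. The points share libraries and the large effect of ABA, so these values only rank likeness. CMT3 averaged 37.8 CPM in amiR-SYD-1 and 35.9 CPM in amiR-SYD-2 on ABA, against 31.0 CPM in amiR-HsMYO, and 50.0 CPM in amiR-SYD-1 and 48.8 CPM in amiR-SYD-2 on ethanol, against 56.4 CPM in amiR-HsMYO, a much shallower form of the pattern.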

How the data were processed

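The deposited table held raw counts per gene, 1 column for each of 12 libraries. Trimmomatic 0.39, STAR 2.7.10a and the TAIR10 build are named in the submitters' processing notes. No source used here states the counter, its strand setting or its treatment of shared reads, so counts of overlapping genes (18 members) and close paralogs are uncertain. From the counts, CPM and R were computed as stated above. Tests used edgeR 4.0.16 (R 4.3.3) on the deposited counts: filterByExpr with a minimum count of 10 (19612 genes, all 129 members among them), TMM scaling, 1 mean per group over all 12 libraries with 6 residual degrees of freedom, 2-sided quasi-likelihood tests and Benjamini-Hochberg adjustment over all tested genes, called at 0.05. The SYD lines were compared with each other by the same fit, as a description, since their values had entered the rule. The p-values behind all calls measure only the spread between these libraries. The fit was first tested on simulated counts with known changes. Intervals and floors cover counting error only. Replicate numbers did not pair the libraries by the labels. Names, positions and sequence came from RefSeq TAIR10.1; all members matched, and 128 had a promoter window (AT3G17050 is annotated as a pseudogene). The members and gene lists were chosen with earlier results of these data known, and some list patterns were corrected after their matches were seen. Genes were named by fixed ranks: the largest differences in R, the highest ethanol CPM in amiR-HsMYO, up to 4 from each list, the smallest p between the SYD lines, and those nearest the limits. Other genes, and the promoters printed, were chosen after their values were seen. Alternatives were other scaling (RLE), no filter, DESeq2 1.42.0, other pseudocounts, a replicate block, fewer groups and leaving out each library.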

Additional observations from a re-analysis of the deposited data

How the results depend on the processing

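The set itself depends on the settings of its rule. It held 129 genes with TMM library sizes as well, 98 with a pseudocount of 1 (95 shared) and 170 with a pseudocount of 0.1 (119 shared), where PGAZAT had a difference in R of -0.73; 66 members had differences of at least 1. Leaving out 1 library at a time gave 112 to 162 genes. Leaving out a library also gave ranges for counts of members. For the mean of the SYD lines on ethanol, 15 to 26 members were called higher, with 15 without replicate 2 of amiR-HsMYO. In the same refits 17.3% to 35.2% of all tested genes were called in either direction. ABA was called to raise 0 to 1 member in amiR-SYD-2 (31.1% to 45.3% of all tested genes called in either direction). Between amiR-SYD-1 and amiR-SYD-2 on ethanol, 0 to 3 members were called higher and 0 to 3 lower (0.0651% to 1.08%). On ABA 0 to 1 were higher and 1 to 10 lower (0.18% to 1.09%), and 0 to 1 had a lower response (0% to 0.0651%). Calls over all tested genes thus moved with the library left out as well. With no low-count filter, the comparisons of amiR-SYD-1 with amiR-SYD-2 gave 6 higher and 7 lower members on ethanol (2.36% of all genes tested called in either direction). On ABA they gave 1 higher and 21 lower (1.81%), and 3 members had a lower response (0.422%). ABA was called to raise 1 member in amiR-SYD-2 (33.3% in either direction). Fitting only the groups compared gave 1 lower on ethanol (0.518% in either direction) and 2 higher and 14 lower on ABA (2.23% in either direction). It gave 1 member raised by ABA in amiR-SYD-2 (41.7% in either direction). It also gave 7 members lower in the SYD lines than in amiR-HsMYO on ABA, where 31.2% of tested genes were called in either direction. The labels give no pairing, and residual correlations of equal replicate numbers ran from -0.034 to 0.15 (median 0.067). With the replicate block 1 member was higher and 4 lower on ethanol (1.57% in either direction), and 1 higher on ABA (1.23% in either direction). The cause of these changes was not tested. Of the values of single named genes, most of them differences in R that have no call, 37 differences between the SYD lines fell short of the call, 11 values moved by more than the replicate spread and 1 reversed; smaller moves could still take a gene below the limit of 0.8. With 2 libraries a group and under 3 counts in several groups, small differences were not detectable.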
